A study of Homo sapiens with 4 samples.

Results

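The genes described here carry the interleukin-1 (IL-1) system, which cells use to make, sense and block an alarm cytokine. They are 10 genes, chosen by name from the annotation of the array: the ligands IL1A, IL1B, IL18 and IL33, the receptor chains IL1R1 and IL1RAP, the blockers IL1RN and IL1R2, and the kinases IRAK1 and IRAK2, which are neither ligands nor receptors. They were read by 14 of the 34127 probes and stood for 10 of the 25992 gene names, with 41 spots on each array. All 14 probes were annotated to a transcript that RefSeq lists under the same symbol.

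Human proximal tubular cells (HPTCs) of 2 lines were studied, HK-2, immortalised with the papillomavirus genes E6 and E7, and RPTEC/TERT1, immortalised with the catalytic subunit of telomerase. Every culture was starved for 24 h and then received IL-1β (10 ng/mL) together with empagliflozin (Empa, 500 nM), an inhibitor of the glucose transporter SGLT2, for 24 h. Each line gave 2 arrays, numbered replicate 1 (written rep 1 here) and replicate 2 (rep 2), which the methods call biological duplicates. Unstimulated cells and cells given only IL-1β were not analysed here, and no value below is a response to IL-1β or to Empa.

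IL-1α and IL-1β bind the receptor IL1R1, which recruits the accessory chain IL1RAP. The adapter MYD88 and the IRAK kinases then carry the signal to NF-κB. IL1RN encodes an antagonist that occupies the receptor without signalling, and IL1R2 is a decoy that binds IL-1 without passing a signal on. IL-1β and IL-18 are made as precursors that caspase 1 cuts, while IL-1α and IL-33 are active as alarm signals from damaged cells. Tubular epithelium is both a target and a source of these cytokines in injured kidney. The array reads RNA, so IL-1β protein added to the medium is not part of any value.

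Probe sequences are shown for 3 genes to let a reader see what was hybridised: the receptor that senses IL-1, a precursor that the cells made, and the decoy that was not found. Each is the 60-base probe of the array within the coding sequence, in lower case and without a marked part. The IL1R1 probe lies at chr2:102792046-102792105 on the plus strand of GRCh37 and the IL18 probe at chr11:112020811-112020870 on the minus strand. The IL1R2 probe is placed at chr2:102632505-102636150, plus strand, a span of 3646 bases for 60 bases of probe, so it crosses an intron.
IL1R1 probe A_33_P3396389: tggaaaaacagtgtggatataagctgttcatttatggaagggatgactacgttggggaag
IL18 probe A_23_P104798: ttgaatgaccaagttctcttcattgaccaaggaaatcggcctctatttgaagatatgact
IL1R2 probe A_24_P63019: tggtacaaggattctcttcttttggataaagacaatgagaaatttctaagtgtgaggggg

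Sequence before the transcription start is shown for IL1B and IL1RAP, a ligand and a receptor chain whose levels differed in opposite directions between the arrays of a label. RefSeq promoters (GRCh38.p14) were found for 9 of the 10 genes, IL18 being the exception, with 17 start sites, and the 250 bases before each start were searched on both strands for 4 motifs. Capitals mark a C/EBP match (TTGCNNAA) in IL1B, chr2:112836780-112837029 on the minus strand, and 2 NF-κB matches (GGGA and CC with any 4 bases between them) in IL1RAP, chr3:190513835-190514084 on the plus strand.
IL1B: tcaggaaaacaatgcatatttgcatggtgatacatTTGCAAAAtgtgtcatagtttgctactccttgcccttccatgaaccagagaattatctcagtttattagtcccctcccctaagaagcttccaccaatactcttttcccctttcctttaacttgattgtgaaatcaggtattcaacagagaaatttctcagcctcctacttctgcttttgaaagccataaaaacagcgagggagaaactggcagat
IL1RAP: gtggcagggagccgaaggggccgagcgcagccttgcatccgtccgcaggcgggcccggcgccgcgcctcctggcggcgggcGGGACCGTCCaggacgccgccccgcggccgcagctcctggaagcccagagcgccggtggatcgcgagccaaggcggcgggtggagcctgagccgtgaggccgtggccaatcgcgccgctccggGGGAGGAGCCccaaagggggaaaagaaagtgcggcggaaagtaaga

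The NF-κB letters were present before IL1R2, IL1RAP and IRAK1, and in 22.6% of all 35116 promoters of that length. The AP-1 letters TGANTCA were present before IL1A and IL1RN and in 6.57% of all promoters. The C/EBP letters were present before IL1B alone among the 9 genes and in 9.05% of all promoters. The TATA box letters TATAAA were present before IL1A, IL1R1, IL1R2 and IL1RN and in 10.7% of all. They lay 239 bases before the start for IL1A, 229 and 124 for IL1R1, 30 for IL1R2, and 32 and 30 for IL1RN. A gene was counted if any of its start sites matched, with 17 windows for the 9 genes. The shares of all promoters are per window, so they are not in the same unit as the gene counts. No motif overlapped another in the printed windows. These are matches of letters and no binding was measured. IL1B, IL1R1, IL1RN and IRAK2, which differed in the same direction between arrays below, had no motif common to all of them.

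Levels are log2 of the spot signal over the 75th percentile of its array, so that 0 is the 75th percentile and -1 is 50% of it. Signals under 2.42% of that percentile were set to a floor of -5.37, the highest of the 4 arrays' lowest signals still marked well above background, and have no order among themselves. A level below 0 is therefore a dim spot and not a decrease. The 75th percentile of the signal was 393 on HK-2 rep 1, 748 on HK-2 rep 2, 488 on RPTEC/TERT1 rep 1 and 429 on RPTEC/TERT1 rep 2, with 59.2% to 64.9% of the 43118 spots of an array well above background. No spot of the 10 genes was saturated. The IL1A, IL1B and IL18 probes were spotted 10 times on each array, and every other probe of these genes had 1 spot.

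The arrays did not divide by their labels. Over 16473 genes, HK-2 rep 1 correlated with RPTEC/TERT1 rep 2 (r = 0.983) more closely than with HK-2 rep 2 (r = 0.847). HK-2 rep 2 and RPTEC/TERT1 rep 1 correlated with r = 0.975, and the 2 RPTEC/TERT1 arrays with r = 0.833. These are correlations across genes, which are not independent replicates. Replicate 1 of both lines was scanned on the first day and rep 2 of both on the second, and each array had its own slide, so that the slide cannot be told apart from the array. Whether a label was exchanged was not tested. If one was, each value below that is called within HK-2, within RPTEC/TERT1 or between the lines would mean something else. Every value is given under the label of its array, and arrays were not regrouped.

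The labelled tissue was checked against 18 proximal tubule markers, of which 11, 10, 8 and 11 were above background on HK-2 rep 1, HK-2 rep 2, RPTEC/TERT1 rep 1 and RPTEC/TERT1 rep 2. Their summed signal, in percent of the 75th percentile, was 2764, 686, 1084 and 2225 in the same order. PAX8 (4.13, 1.61, 2.79 and 3.73) and DPP4 (2.79, 1.16, 1.31 and 2.45) were the brightest of them, so the sum mostly follows these genes. CUBN, SLC22A6 and HNF4A, which define the differentiated tubule, were above background on none. SLC5A2, which encodes the target of Empa, stood at -3.84, -3.08, -3.57 and -3.05, above background on all 4. Of 9 leukocyte markers measured, 6, 7, 8 and 5 were above background, with a summed signal of 175, 251, 266 and 331, and PTPRC stood at -3.39, -3.62, -3.32 and -4.25. The part of these markers in the results below was not tested.

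The plot of all 10 genes shows that 6 of them were measured on every array, namely IL18, IL1R1, IL1RAP, IL1RN, IRAK1 and IRAK2. IL1B was measured on HK-2 rep 1 and RPTEC/TERT1 rep 2 only. IL1A was above background on RPTEC/TERT1 rep 2 alone and IL33 on HK-2 rep 2 alone, while IL1R2 was above background nowhere. The 7 genes above background on at least 2 arrays entered the comparison of the labelled lines, and IL1B did so through the arrays where it was high.

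**Figure D1:**
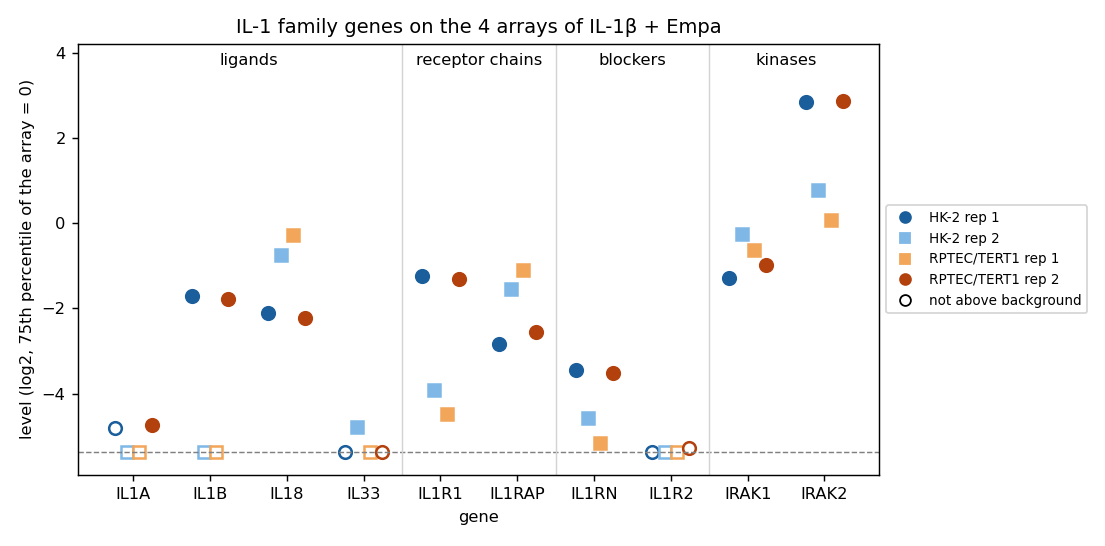
Level of each of the 10 genes (x axis) on each of the 4 arrays (y axis, log2, 75th percentile of the array at 0), blue for HK-2 and orange for RPTEC/TERT1, circles and squares for pairs of arrays that resembled each other; open symbols are not above background and the dashed line is the floor of -5.37. IL1B stood at -1.72 on HK-2 rep 1 and -1.78 on RPTEC/TERT1 rep 2 and at the floor on the other arrays.

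IL1B, the gene of the precursor of IL-1β, was above background on 1 array of each label. Its level was -1.72 on HK-2 rep 1, at the floor on HK-2 rep 2 and RPTEC/TERT1 rep 1, and -1.78 on RPTEC/TERT1 rep 2. The probe (A_23_P79518, chr2:113587429-113587488, GRCh37) was spotted 10 times on each array, and spots of 1 array share its labelling, hybridisation and scan. On HK-2 rep 1 the spots ran from a signal of 106 to 134 with a median of 121, and 10 of 10 were above background. On HK-2 rep 2 the 8 usable spots ran from 1.65 to 6.21 and none was above background. On RPTEC/TERT1 rep 1 the 7 usable spots ran from 0.516 to 2.91, again with none above background, and on RPTEC/TERT1 rep 2 the 10 spots ran from 112 to 136. The spots of the bright arrays did not overlap those of the dim arrays. HK-2 rep 1 was at least 12.6-fold above HK-2 rep 2, and RPTEC/TERT1 rep 2 at least 12.1-fold above RPTEC/TERT1 rep 1. These folds rest on the floor. On the log2 scale the difference within HK-2 was 3.65 here, 2.78 in the deposited values, 3.41 with normexp correction, which adds 50 to every signal, and 2.25 with normexp without 8 spots of very bright background on HK-2 rep 1. Within RPTEC/TERT1 it was 3.59 here, 1.60 in the deposited values and 1.78 with normexp. Each is 1 array against 1 array and has no test. In RNA of whole cultures, fewer cells that express a gene and less RNA per cell cannot be told apart.

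IL1A, the gene of the membrane and nuclear ligand IL-1α, was near the limit of detection. Its 10 spots (A_23_P72096, chr2:113532362-113532421) had a median signal of 13.4 on HK-2 rep 1, with 2 of 10 above background, and of 15.5 on RPTEC/TERT1 rep 2, with 5 of 10 above background. On HK-2 rep 2 the median of 9 spots was -0.40 and on RPTEC/TERT1 rep 1 the median of 9 spots was -0.46, with none above background on either. IL1A was not tested since it was above background on 1 array.

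IL18, a ligand kept as a precursor in epithelial cells, went the other way. Its level was -2.11 on HK-2 rep 1, -0.74 on HK-2 rep 2, -0.28 on RPTEC/TERT1 rep 1 and -2.23 on RPTEC/TERT1 rep 2. All usable spots were above background, and their signals ran from 86.3 to 98.8 on HK-2 rep 1, from 412 to 496 on HK-2 rep 2, from 365 to 461 on RPTEC/TERT1 rep 1 and from 80.5 to 103 on RPTEC/TERT1 rep 2. HK-2 rep 2 was 2.59-fold above HK-2 rep 1, and RPTEC/TERT1 rep 1 was 3.86-fold above RPTEC/TERT1 rep 2. The difference between the HK-2 arrays rested on how the background was treated: HK-2 rep 1 minus HK-2 rep 2 was -1.37 here, -0.095 in the log2 values that the authors deposited and 0.44 after normexp correction, but -0.92 after the same correction without 8 spots of very bright background on HK-2 rep 1. The RPTEC/TERT1 difference kept its direction in all of these.

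**Figure D2:**
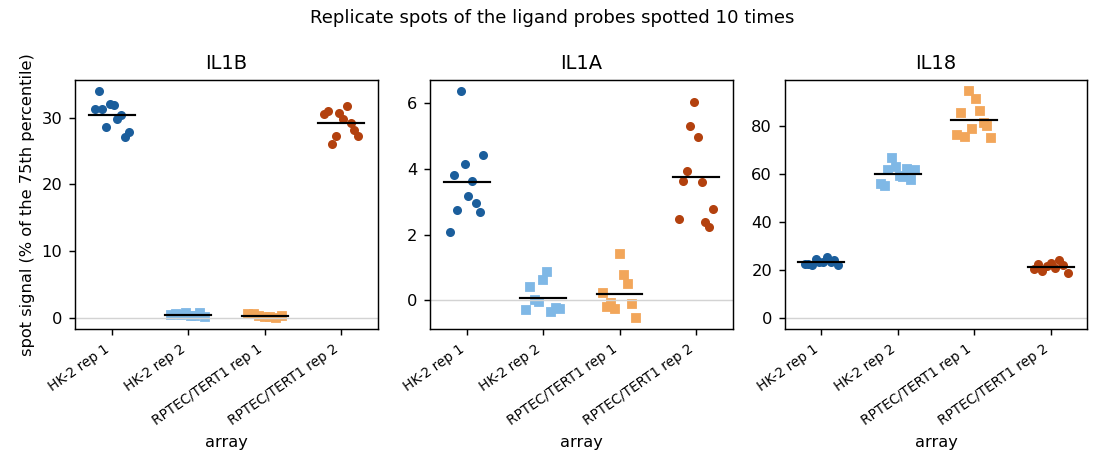
Signal of each replicate spot (y axis, percent of the 75th percentile of the array, a linear scale that differs between panels) of the IL1B, IL1A and IL18 probes on the 4 arrays (x axis), with 1 point per spot and the mean as a bar. IL1B spots had a median of 30.8% on HK-2 rep 1 and 29.5% on RPTEC/TERT1 rep 2, against 0.572% and 0.357% on the other arrays, while IL18 spots were lower on the arrays where IL1B was high.

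IL33, the gene of a nuclear alarm cytokine, had 1 spot on each array (chr9:6257372-6257431). It stood at -4.78 on HK-2 rep 2 with a signal of 27.2. It was not above background on the other 3, with a signal of 6.76 on HK-2 rep 1, 10.9 on RPTEC/TERT1 rep 1 and 6.77 on RPTEC/TERT1 rep 2. The value rests on a single spot, and IL33 was not tested.

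IL1R1, the receptor that binds IL-1 and signals, was above background on every array. Its level was -1.24 on HK-2 rep 1, -3.92 on HK-2 rep 2, -4.48 on RPTEC/TERT1 rep 1 and -1.31 on RPTEC/TERT1 rep 2. The arrays with IL1B at the floor were thus the arrays with the lower IL1R1. HK-2 rep 1 was 6.44-fold above HK-2 rep 2 and RPTEC/TERT1 rep 2 was 9.0-fold above RPTEC/TERT1 rep 1. The log2 difference within HK-2, 2.69 here, was 2.19 in the deposited values and 1.85 with normexp without the bright spots, and that within RPTEC/TERT1, 3.17 here, was 1.60 and 1.77. Both of its probes showed this. The coding probe printed above stood at -0.78, -3.50, -3.99 and -0.45, and the other (A_24_P200023, chr2:102795394-102795453) at -1.69, -4.34, -4.98 and -2.17, in the order HK-2 rep 1, HK-2 rep 2, RPTEC/TERT1 rep 1, RPTEC/TERT1 rep 2.

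IL1RAP, the accessory chain without which IL1R1 does not signal, went the opposite way to IL1R1. Its level was -2.83 on HK-2 rep 1, -1.54 on HK-2 rep 2, -1.10 on RPTEC/TERT1 rep 1 and -2.56 on RPTEC/TERT1 rep 2. HK-2 rep 2 was 2.44-fold above HK-2 rep 1 and RPTEC/TERT1 rep 1 was 2.76-fold above RPTEC/TERT1 rep 2. The probes differed in size. The probe annotated to the long transcript, which encodes the membrane chain (A_23_P170857, chr3:190368968-190369027), stood at -1.77, -1.21, -0.86 and -1.76. The probe annotated to the short transcript, which encodes a soluble form that binds without signalling (A_23_P336554, chr3:190347694-190347753), stood at -3.89, -1.88, -1.34 and -3.36, so that HK-2 rep 1 was 4.04-fold below HK-2 rep 2 and RPTEC/TERT1 rep 2 was 4.07-fold below RPTEC/TERT1 rep 1. The larger differences in IL1RAP were thus those of the probe for the soluble form. As for IL18, the HK-2 difference of -1.29 turned to 0.34 in the deposited values and 0.95 after normexp correction, and was -0.58 without the 8 bright spots.

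IL1RN, the gene of the receptor antagonist, was above background on all arrays by 1 probe and on 2 arrays by the other, and the probes disagreed. The gene level was -3.45 on HK-2 rep 1, -4.58 on HK-2 rep 2, -5.16 on RPTEC/TERT1 rep 1 and -3.52 on RPTEC/TERT1 rep 2. Probe A_33_P3246833 (chr2:113891531-113891590) stood at -2.41 and -3.15 on HK-2 rep 1 and RPTEC/TERT1 rep 2 and at the floor on the other arrays, differences of at least 7.81-fold within HK-2 and at least 4.67-fold within RPTEC/TERT1. Probe A_33_P3246829 (chr2:113890639-113890698), to the left of it, was above background on all 4 at -4.50, -3.79, -4.96 and -3.90, so that HK-2 rep 1 was below HK-2 rep 2 by 0.71 and RPTEC/TERT1 rep 2 above RPTEC/TERT1 rep 1 by 1.06. The probes differed in direction within HK-2 with this processing, with quantile scaling and with outlier spots kept. With normexp correction HK-2 rep 1 was higher by both, at 2.37 for A_33_P3246829 and 3.28 for A_33_P3246833, as in the deposited values (1.58 and 2.57) and with normexp without the 8 bright spots (0.16 and 1.81). The gene difference within RPTEC/TERT1, 1.64 here, was 0.74 with normexp and 0.62 in the deposited values. IL1R2, the decoy, was above background on no array, with signals of 5.97 and 6.93 on HK-2 rep 1 and rep 2, 2.40 on RPTEC/TERT1 rep 1 and 11.2 on RPTEC/TERT1 rep 2, the last at a level of -5.26. Its probe reads a junction of exons, so transcripts that lack it would not be read.

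**Figure D3:**
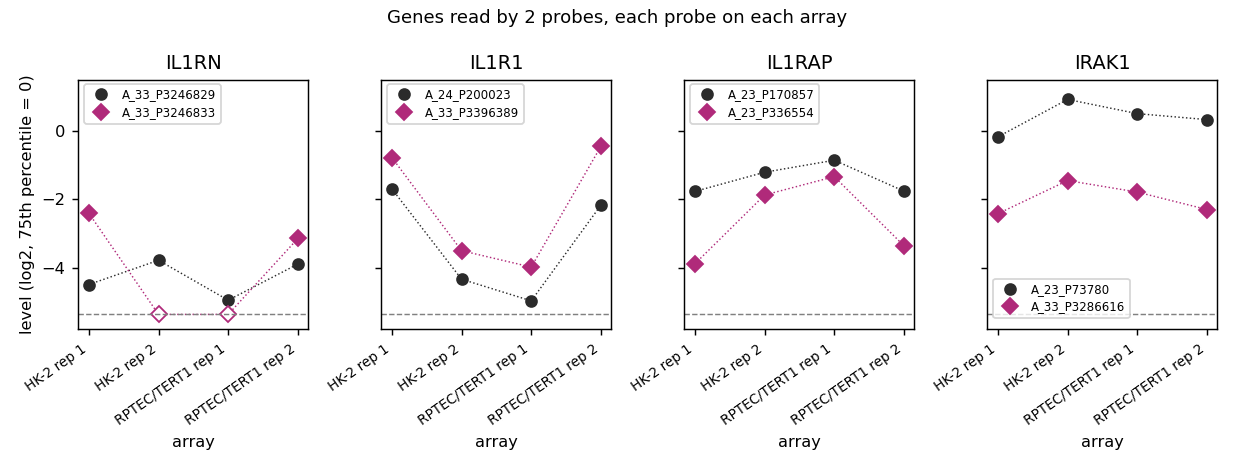
Level of each probe (y axis, log2, 75th percentile of the array at 0) on the 4 arrays (x axis) for the 4 genes read by 2 probes, with open symbols where the probe was not above background and the dashed line at the floor. With the processing shown, the IL1R1 probes and the IRAK1 probes moved in parallel, and the IL1RAP probes moved in the same direction by different amounts. The IL1RN probes went opposite ways within HK-2. With normexp correction or in the deposited values the IL1RN probes did not do so, while the IRAK1 probes did.

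IRAK2, a kinase that takes up the signal from the receptor complex and prolongs it, was above the 75th percentile on all arrays. Its level was 2.84 on HK-2 rep 1, 0.78 on HK-2 rep 2, 0.08 on RPTEC/TERT1 rep 1 and 2.87 on RPTEC/TERT1 rep 2, by 1 probe (A_33_P3352970, chr3:10285302-10285361). It was 4.19-fold higher on HK-2 rep 1 than on HK-2 rep 2 and 6.93-fold higher on RPTEC/TERT1 rep 2 than on RPTEC/TERT1 rep 1. Each of these folds is 1 spot against 1 spot. With normexp the difference within HK-2 fell from 2.07 to 1.02, and it was 2.02 without the bright spots. IRAK1, the related kinase that acts early after the receptor, varied less, at -1.30, -0.26, -0.64 and -0.98. Its difference of -1.03 between the HK-2 arrays was 0.0084 after normexp correction and -0.77 without the 8 bright spots. The 0.0084 is a mean of probes that went opposite ways, at -0.93 for A_23_P73780 and 0.95 for A_33_P3286616. In the deposited values these probes were at -0.97 and 0.40.

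The comparison of the labelled cell lines called none of these genes. With limma and Benjamini-Hochberg adjustment over 16473 genes, 0 genes were called, or 0% of those tested, and 23 had an unadjusted p under 0.05, none of them among the 7. The adjusted p was 1 for each of the 7. The mean of HK-2 less that of RPTEC/TERT1 was 0.03 for IL1B (SE 1.80, 95% interval -4.85 to 4.91, n = 2 and 2), 0.32 for IL1R1 (SE 1.48, -3.70 to 4.33) and 0.34 for IRAK2 (SE 1.26, -3.08 to 3.75). For IL18 it was -0.17 (SE 0.92, -2.65 to 2.31), for IL1RAP -0.36 (SE 0.79, -2.49 to 1.78), for IL1RN 0.33 (SE 0.80, -1.84 to 2.49) and for IRAK1 0.03 (SE 0.56, -1.48 to 1.55). The intervals of IL1B, IL1R1 and IRAK2 hold differences of over 3 log2 units in either direction, so these arrays do not show that the lines were alike. For 0 of the 7 genes did both HK-2 arrays lie above both RPTEC/TERT1 arrays, as did 4.36% of all genes, and for 0 of the 7 did they lie below, as did 2.82%.

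Within a replicate number the lines differed, and they did so in opposite directions. HK-2 minus RPTEC/TERT1 for IL1B was 3.65 within rep 1 and -3.59 within rep 2. For IL1R1 it was 3.24 and -2.61, for IRAK2 2.77 and -2.09 and for IL1RN 1.71 and -1.06. For IL18 it was -1.83 and 1.49 and for IL1RAP -1.73 and 1.02, while IRAK1 at -0.66 and 0.72 stayed under 1 log2 unit. Within rep 1, 4 genes were higher in HK-2 by 1 log2 unit or more (19.6% of all genes) and 2 lower (16.4%). Within rep 2, 2 were higher (16% of all) and 4 lower (17.8%). Differences of 1 log2 unit or more in opposite directions were thus seen in 6 of 7 genes, and in 27.4% of all 16473 genes. None of the 7 differed by 1 or more in the same direction within both numbers, as did 0.206% of all genes.

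**Figure D4:**
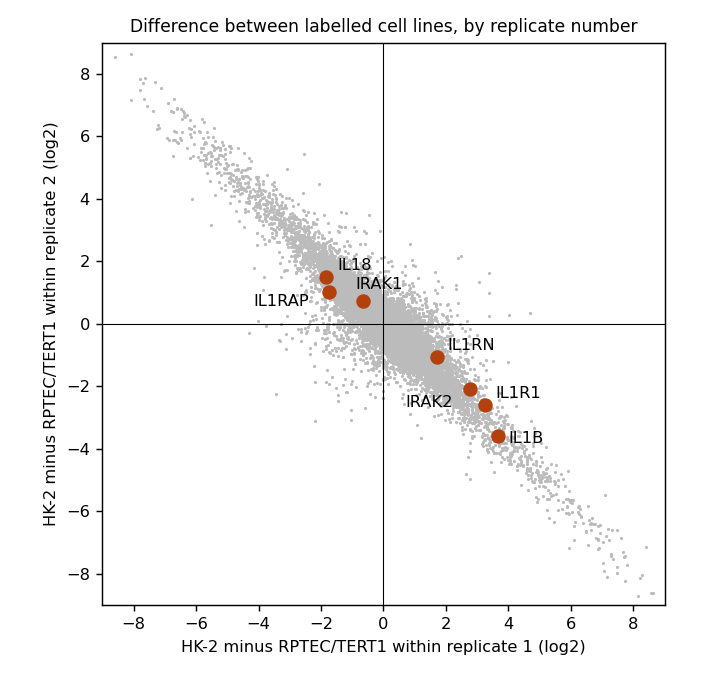
Difference between the labelled lines, HK-2 minus RPTEC/TERT1, within rep 1 (x axis, log2) and within rep 2 (y axis, log2), for all 16473 genes in grey and the 7 genes of the IL-1 system in orange. The genes lie along the falling diagonal, with IL1B at 3.65 and -3.59 and IL18 at -1.83 and 1.49.

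Differences of 1 log2 unit or more between the arrays of a label were also seen in many other genes. The median absolute difference within HK-2 was 1.37 for the 7 genes and 0.67 for all genes. Within RPTEC/TERT1 it was 1.95 for the 7 genes and 0.79 for all genes. Between the HK-2 arrays, rep 1 was higher by 1 log2 unit or more for 4 of 7 genes (IL1B, IL1R1, IL1RN, IRAK2) and for 17.7% of all genes, and lower for 3 of 7 (IL18, IL1RAP, IRAK1) and for 16.4% of all. Between the RPTEC/TERT1 arrays, rep 2 was higher for the same 4 genes and for 22.1% of all, and lower for 2 (IL18, IL1RAP) and for 18.4% of all. IL1B counts here because it was high on 1 array of each label. IL1RN counts within HK-2 as a mean of probes at -0.71 and 2.97, the latter against the floor. The HK-2 differences of IL18, IL1RAP and IRAK1 changed sign with normexp, but not without the 8 spots of bright background. Across the labels, HK-2 rep 1 and RPTEC/TERT1 rep 2 differed by 1 or more for 0 of the 7 genes (2.15% of all genes higher on HK-2 and 2.75% lower), as did HK-2 rep 2 and RPTEC/TERT1 rep 1 (3.91% higher and 2.87% lower). In that last pair IRAK2 was 0.70, IL1RN 0.58 and IL1R1 0.56 higher on HK-2 rep 2.

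The genes were next laid out by what each array held of the system. HK-2 rep 1 and RPTEC/TERT1 rep 2 had IL1B, the higher IL1R1 and the higher IRAK2, with the lower IL1RAP and IL18. HK-2 rep 2 and RPTEC/TERT1 rep 1 had IL18 and IL1RAP at their higher levels, IL1R1 above background at -3.92 and -4.48, and no IL1B above background. The antagonist was read by at least 1 probe on all arrays and the decoy on none. Within HK-2 the order of IL1RAP was the reverse in the deposited values (0.34) and with normexp (0.95), as was that of IL18 with normexp (0.44). The larger IL1RAP differences were those of the probe for the soluble form. The layout is an order of single arrays, with 2 of each label, and has no test.

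The other genes of the pathway were read from a list of 51, of which 34 were above background on at least 2 arrays. None was called between the labelled lines (0 of 34). HK-2 rep 1 was higher than rep 2 by 1 log2 unit or more for 9 of 34 (17.7% of all genes) and lower for 5 (16.4%). The median difference was 0.05 against 0.06 over all genes. RPTEC/TERT1 rep 2 was higher than rep 1 for 9 (22.1% of all genes) and lower for 5 (18.4%), with a median of 0.17 against 0.09. Higher in both were 8 of 34, against 12.3% of all genes, and lower in both were 4 of 34, against 11.4%. Some entered only through the arrays where they were high, so these counts are a description.

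Genes that process and release the cytokines held most of these. Of the 13 tested, 6 were higher in both (12.3% of all genes) and 3 lower in both (11.4%). Some of them, such as CASP1 and SYT1, entered only through the arrays where they were high. CASP4, the inflammatory caspase that senses lipopolysaccharide inside the cell, stood at 3.71 on HK-2 rep 1, -4.34 on HK-2 rep 2, -4.01 on RPTEC/TERT1 rep 1 and 3.91 on RPTEC/TERT1 rep 2, differences of 266-fold within HK-2 and 242-fold within RPTEC/TERT1. CASP5, its close relative, stood at 1.91 and 2.00 on the same 2 arrays and at the floor on the others, at least 156-fold and at least 165-fold. On HK-2 rep 2 it was marked above background although its level was at the floor. The folds of CASP4 and CASP5 are given for this processing alone. SYT1, a protein of vesicle release, went the other way, at -0.91 on HK-2 rep 2 and -3.32 on RPTEC/TERT1 rep 1 and at the floor on the others, by 1 of its 2 probes, the other being at the floor throughout. CASP4 and CASP5 are similar in sequence, and whether their probes read each other's RNA was not tested.

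Genes that stand at the step from precursor to cytokine are given too, though they were chosen after their values were seen. CASP1, the enzyme that cuts pro-IL-1β and pro-IL-18, stood at -1.65 on HK-2 rep 1 and -1.89 on RPTEC/TERT1 rep 2 and at the floor on the other arrays, at least 13.2-fold and at least 11.1-fold. The arrays with IL1B were thus those with CASP1 above background. PYCARD, the adapter that joins caspase 1 to its sensors, was lower there, at -2.17 and -1.71 against 0.83 on HK-2 rep 2 and 0.51 on RPTEC/TERT1 rep 1. GSDMD, which forms the pore through which IL-1β leaves, was 0.91 higher on HK-2 rep 1 than on rep 2 and 0.92 higher on RPTEC/TERT1 rep 2 than on rep 1. The CASP4, CASP5 and CASP1 probes are neighbours on chromosome 11 (GRCh37), the first starting at 104815492 and the last ending at 104897602.

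**Figure D5:**
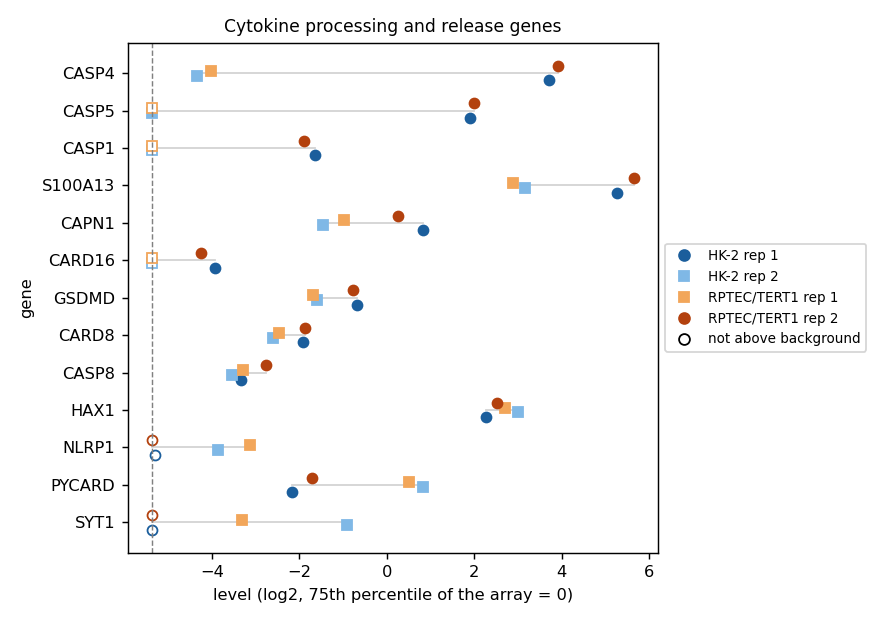
Level (x axis, log2, 75th percentile of the array at 0) on each of the 4 arrays of the 13 processing and release genes that were tested (y axis), ordered by the mean of the 2 differences within a label, with open symbols where a gene was not above background and the dashed line at the floor. CASP4 spans from -4.34 to 3.91, while HAX1 and CASP8 vary by less than 1 log2 unit.

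Of the other ligands, IL36G, an epithelial cytokine of the family, stood at -0.56 on HK-2 rep 1, -5.09 on HK-2 rep 2, -4.28 on RPTEC/TERT1 rep 1 and -1.49 on RPTEC/TERT1 rep 2. IL37, which dampens inflammation, differed by 0.82 within HK-2 and -0.04 within RPTEC/TERT1. IL1F10 differed by -0.91 and 0.12, but was above background on HK-2 rep 2 alone and was not tested. Of the other receptors, SIGIRR, an inhibitory receptor, differed by -0.997 and -0.825 and IL18R1, the binding chain for IL-18, by -0.73 and -0.80. Both are means over unlike probes, given here in the same order of arrays. SIGIRR probe A_23_P84344 stood at -0.95, 0.46, 0.46 and -0.78, and A_33_P3259705 at -4.65, -4.06, -4.48 and -4.88. IL18R1 was near the floor, with A_24_P208567 at -5.27, -3.80, -3.94 and -5.37 and its other probes at or close to the floor. IL18RAP differed by -0.31 and -3.26, and its probes disagreed, since 1 of the 2 was at the floor on every array.

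Of the adapters and kinases, TOLLIP, an adapter that restrains the IRAK kinases, differed by 1.89 within HK-2 and 1.58 within RPTEC/TERT1. IRAK3, the kinase homologue that halts signalling, differed by -1.53 and -2.01, opposite to IRAK2. MYD88, the adapter shared by the IL-1 and Toll-like receptors, stood at 0.29, -1.23, -0.15 and -0.01, differing by 1.52 within HK-2 and 0.14 within RPTEC/TERT1. Of the 14 tested in this group, 2 were higher by 1 log2 unit or more within HK-2 (17.7% of all genes) and 2 lower (16.4%). Within RPTEC/TERT1, 2 were higher (22.1% of all genes) and 1 lower (18.4%).

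The genes whose pattern over the 4 arrays lay nearest to that of IL1B were a transcript listed as ENST00000479981, ADAM9, a membrane protease, and KLHL3, a ubiquitin ligase adapter. Their centred levels lay 0.028, 0.034 and 0.040 log2 units from those of IL1B (root mean square over 4 arrays, 16466 genes compared). These 3 and IL1B share the floor on the same 2 arrays, which sets much of this likeness. Nearest to IL1R1 were SLCO3A1 (0.031), TSPAN12 (0.055) and CLUHP3 (0.065), and nearest to IL1RN were SLC35F3 (0.022), LYST (0.041) and LYRM1 (0.041).

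By position, 5 of the 10 genes lay on chromosome 2 (GRCh37). The probes of IL1A, IL1B and IL1RN fell between 113532362 and 113891590, and those of IL1R2 and IL1R1 between 102632505 and 102795453. IL1R2 was not above background on any array, while its neighbour IL1R1 was above background on all.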

How the data were processed

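RNA of 4 cultures was hybridised to 1-colour Agilent arrays. The authors deposited linear spot intensities of each array, read with Agilent Feature Extraction 9.5.3.1, background-subtracted and not scaled between arrays, with flags for outlier, saturated and well-above-background spots. They also deposited log2 values in a series table, with medians of 8.31 on HK-2 rep 1 and 6.65 to 7.04 on the other arrays. Their ranks follow the spot median minus local background, their direction is that of the intensities, and whether they were centred or scaled stays unknown. For RNA isolation the labels give RNeasy and the methods innuPREP.

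Control and outlier spots were dropped, each signal was taken relative to its array's 75th percentile, floored at 0.0242 of it and taken to log2. Spots were averaged per probe, and the probes of a gene that were above background on at least 1 array were averaged. The labelled lines were compared by limma 3.58.1 in R 4.3.3 over genes above background on at least 2 arrays (two-sided, Benjamini-Hochberg at 0.05), a step tested on simulated data. The simulated spread between arrays of a label was smaller than that of the IL-1 genes tested. Their SD ran from 0.24 (IRAK1, RPTEC/TERT1) to 2.58 (IL1B, HK-2). The simulation therefore does not tell which differences the fit could find in these arrays. The alternatives were normexp background correction (offset 50), the deposited values, quantile normalization, no filter and a stricter filter on dim genes, the brightest probe, outlier spots kept, the replicate number as a block, and leaving out each array. Named were the 10 genes with all their probes, the 3 genes of each group of the pathway list with the largest differences within a label, the 3 nearest patterns of IL1B, IL1R1 and IL1RN, and SLC5A2. CASP1, PYCARD, GSDMD, NLRP3 and the markers CUBN, SLC22A6, HNF4A, PAX8, DPP4 and PTPRC fall outside this rule and were named after their values were seen. The members and lists were chosen with earlier results of these data known. Precision is limited by having 2 arrays a line, and p-values measure the spread between 2 cultures of a label.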

Additional observations from a re-analysis of the deposited data

Results flagged for a closer look

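For 6 genes the difference HK-2 minus RPTEC/TERT1 had opposite signs within replicate 1 and within replicate 2, each by 1 log2 unit or more. The values within replicate 1 and replicate 2 were 3.65 and -3.59 for IL1B, 3.24 and -2.61 for IL1R1, and 2.77 and -2.09 for IRAK2. They were 1.71 and -1.06 for IL1RN, -1.83 and 1.49 for IL18, and -1.73 and 1.02 for IL1RAP. All are gene means with the processing used here. The sign did not change for IL1RN probe A_33_P3246829 (0.46 and 0.11 with outlier spots kept). With normexp it did not change for IL18 (0.033 and 1.03) or for either IL1RAP probe. Each value is 1 array against 1 array, and the difference between the replicate numbers was not tested. Such a change of sign was seen in 27.4% of all genes.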

How the results depend on the processing

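Between the labelled lines, 0 genes, and 0 of the IL-1 genes tested, were called by limma under each of the 14 alternatives, with 3 to 239 genes at an unadjusted p under 0.05. The fit with a replicate block called 0 genes, with 5 at an unadjusted p of that size. Deviations of same-numbered arrays from their label means correlated at -0.810 across genes, so the numbers were not taken to pair the arrays. A block that crossed the numbers, added after seeing the data, gave 0 calls and 182 unadjusted.

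The sign of HK-2 minus RPTEC/TERT1 changed for IL18 (0.53 with normexp, 0.25 with deposited values), IL1RAP (0.56 and 0.26), IRAK2 (-0.17 with normexp) and IRAK1 (-0.044 with the brightest probe). Leaving out 1 array gave -1.80 to 1.86 for IL1B, -1.27 to 1.90 for IL1R1, -1.06 to 1.73 for IRAK2, -1.14 to 0.81 for IL18, -1.09 to 0.38 for IL1RAP, -0.49 to 1.15 for IL1RN and -0.48 to 0.55 for IRAK1.

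Of 84 recomputed differences between the arrays of a label, 55 kept their sign and stayed within 1.5 times, 22 were smaller by more than that, 3 were larger, and 4 changed sign, all within HK-2: IL18 (0.44 with normexp), IL1RAP (0.95 with normexp, 0.34 with deposited values) and IRAK1 (0.0084 with normexp). On HK-2 rep 1, 8 spots had a local background above 100, up to 48831, and the median after normexp was 805 against 103 to 142 on the other arrays. Without these spots (an alternative chosen after seeing the data) it was 102, and none of the 14 differences between arrays of a label changed sign. HK-2 minus RPTEC/TERT1 did change sign for IL1B, to -0.19, and for IL1R1, to -0.025. Signals near background limit IL1A, IL33, IL1R2 and IL1RN.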

Other observations

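NLRP3, the sensor that recruits caspase 1, was read by 2 probes and was chosen after its values were seen. The first (A_23_P9883) stood at -1.79 on HK-2 rep 1 and at the floor on the other arrays, and the other (A_33_P3281695) was at the floor on all 4. RPTEC/TERT1 rep 2, which resembled HK-2 rep 1 over all genes, did not share this value.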
